A study of Homo sapiens with 2 samples.

Results

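ZFX peaks in the 4 HOX gene clusters of DAOY cells were chosen by position alone: a peak was taken when it overlapped the interval of a cluster by at least 1 base. This rule took 45 of the 14471 peaks of the list, with 20 in HOXA, 10 in HOXC, 8 in HOXB and 7 in HOXD. The intervals, on the hg19 build, were chr7:27130000-27245000 for HOXA, chr17:46604000-46808000 for HOXB, chr12:54330000-54452000 for HOXC and chr2:176955000-177057000 for HOXD, and were set to hold 38 listed HOX genes from HOXA2 to HOXD13. DAOY is an established line grown from a human medulloblastoma, a tumour of the cerebellum, and it carried no treatment or engineered allele in the labels. The study held 2 samples, untreated DAOY chromatin precipitated with a rabbit antibody against ZFX, and untreated DAOY chromatin that was sheared and not precipitated (input). Only the peak list of the ZFX precipitation was used. It comes from 1 library without a replicate, and no test was possible, so all differences are described beside the whole list, and the line stands for a single tumour.

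HOX genes encode homeodomain transcription factors that give cells their position along the body axis. In each cluster the genes lie in the order of their numbers. Low-numbered genes act towards the head, and the highest-numbered genes act in the tail, the distal limb and the genital tract. The clusters are rich in CpG islands and are kept silent by Polycomb proteins or active by trithorax proteins over long stretches. The cerebellum arises from the most anterior hindbrain, in front of the part that uses HOX genes. ZFX is a zinc finger activator encoded on the X chromosome that is known to bind many CpG island promoters, often at the sequence AGGCCT.

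Gene positions on hg19 were not used here, so no peak is tied to a single HOX gene. The order of the genes was taken from a RefSeq gene table on GRCh38.p14, and only for names and neighbours. In that order HOXA2 and HOXB1 stand at the lower positions of their clusters, with HOXA13 and HOXB13 at the upper positions. HOXC and HOXD run the other way, from HOXC13 and HOXD13 at the lower positions to HOXC4 and HOXD1. Positions within a cluster are therefore also given as the distance from the end with the low-numbered genes. Each peak has a score that the authors gave without a unit. It is used only to rank peaks within the list, where it starts at 50 and has a median of 109.

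Promoter letters were read from the RefSeq promoter table on GRCh38.p14, since they show how far the HOX starts carry the core of the known ZFX sequence. The table held 27 windows for 20 of the 38 listed genes, each reaching from 250 bases before a start to 50 bases after it. AGGCCT, which reads the same on both strands and is therefore found once for both, stood in 2 of the 27 windows (7.41%), against 10.9% of the 35116 windows of all genes. The windows with it belonged to 1 of the 7 starts listed for HOXA3, a gene that patterns the pharyngeal arches, and to HOXD13, which shapes the digits. Both are printed 5′ to 3′ for the 250 bases before the start, with AGGCCT in capitals. The printed HOXA3 bases lie on the minus strand of GRCh38.p14 chr7:27119596-27119845, and the printed HOXD13 bases on the plus strand of GRCh38.p14 chr2:176092471-176092720.
HOXA3: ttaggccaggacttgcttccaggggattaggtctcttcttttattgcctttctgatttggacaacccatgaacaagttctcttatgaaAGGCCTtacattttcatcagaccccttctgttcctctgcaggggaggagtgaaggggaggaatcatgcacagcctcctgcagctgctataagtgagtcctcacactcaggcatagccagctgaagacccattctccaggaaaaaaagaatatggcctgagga
HOXD13: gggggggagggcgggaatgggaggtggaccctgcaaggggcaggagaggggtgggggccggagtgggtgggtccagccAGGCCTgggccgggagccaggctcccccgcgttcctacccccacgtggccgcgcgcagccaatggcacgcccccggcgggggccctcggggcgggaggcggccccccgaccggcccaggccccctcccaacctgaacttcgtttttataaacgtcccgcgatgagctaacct

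The first base of AGGCCT was 162 bases before the start in HOXA3 and 172 bases before it in HOXD13. These windows differ in their CpG content. The HOXA3 window had no CpG and a GC content of 47.3%, whereas the HOXD13 window had 24 CpG and a GC content of 74.0%. A match of letters is a description and says nothing of binding, and the GRCh38.p14 positions cannot be set against the hg19 peaks.

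The 27 windows cover the clusters unevenly, with 16 from HOXA (7 of them HOXA3), 8 from HOXD, 2 from HOXC and 1 from HOXB. Their median GC content was 58.0%, against 58.7% over all windows. The median number of CpG per window was 21.5 in HOXA and 24.5 in HOXD, against 14 over all windows, and the few HOXC and HOXB windows had 15 and 11. HOXA13, which acts in the hand, foot and genital tract, had the most, with 44 CpG at 76.3% GC. HOXD1 followed with 36 and HOXD8 with 34. HOXA2, which patterns the second pharyngeal arch, had 11 CpG at 46.3% GC, and HOXD4 had 4 at 47.3%. HOXC4 and HOXC5 had windows of equal composition, 15 CpG at 51.7% GC, and these may be the same bases listed for both genes. HOXB1, the single HOXB gene with a window, had 11 CpG at 58.0% GC. These values describe the reference sequence and not the peaks.

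With all peaks counted, the 4 clusters were denser than the chromosome around them, and HOXA was the densest. Among peaks above the median score this held for HOXA, HOXC and HOXD and not for HOXB, which had 0 such peaks and 15 beside it. HOXA held 17.4 peaks per 100 kb (exact 95% Poisson interval 10.6 to 26.9). HOXC held 8.20 (3.93 to 15.1), HOXD 6.86 (2.76 to 14.1) and HOXB 3.92 (1.69 to 7.73). The interval of HOXA lies wholly above that of HOXB, whereas those of HOXC and HOXD overlap with both. The clusters together held 8.29 peaks per 100 kb, against 0.493 over the whole list between the outermost peaks of each chromosome. These intervals cover counting error only and treat peaks as independent, although close peaks are not. No source used here gives the read depth.

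The 1 Mb on either side of each cluster was sparser. Both sides of HOXA together had 18 peaks in 2 Mb, or 0.900 per 100 kb (0.533 to 1.42). Density inside HOXA was 19.3 times that value (exact 95% interval from the binomial share 9.71 to 38.7). For HOXD, with 6 peaks beside it or 0.300 per 100 kb (0.110 to 0.653), the ratio was 22.9 (6.58 to 82.4). HOXC had 38 peaks beside it, 1.90 per 100 kb (1.35 to 2.61), and a ratio of 4.31 (1.92 to 8.82). HOXB had 27 beside it, 1.35 per 100 kb (0.890 to 1.96), and the smallest ratio, 2.91 (1.14 to 6.57). The high ratio of HOXD came with the sparsest surroundings of the 4, and its own density lay within the interval of HOXC. The ratios of HOXA and HOXD moved with the length of the flanks, and so did their order: with 500 kb on each side they were 34.8 and 13.7, and with 2 Mb 24.8 and 13.7.

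**Figure D1:**
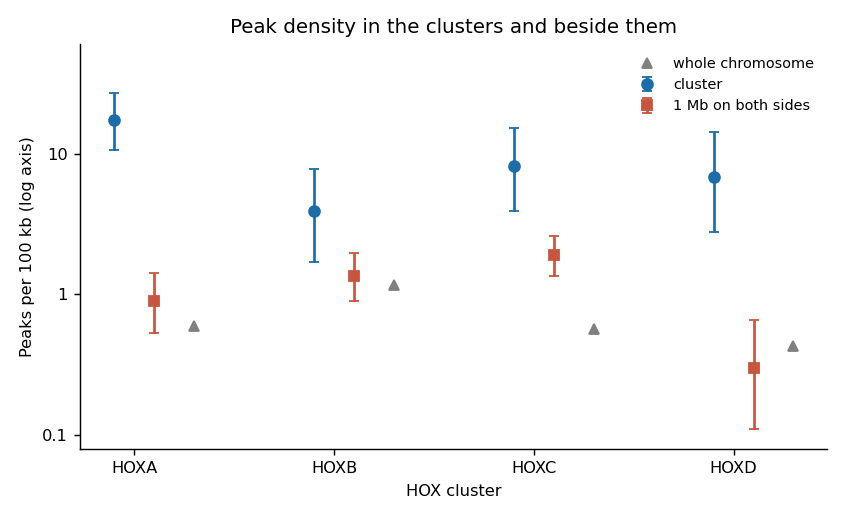
Peaks per 100 kb (log axis) in each HOX cluster (circles) and in 1 Mb on both sides together (squares), with exact 95% Poisson intervals as bars, and over the whole chromosome between its outermost peaks (triangles, no interval). HOXA sits highest at 17.4 and the flanks of HOXD lowest at 0.300.

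In the same counts, all 4 clusters held a larger share of the peaks of their chromosome than of its span. Chromosome 7 had 0.596 peaks per 100 kb, chromosome 12 had 0.569, chromosome 2 had 0.426 and chromosome 17, rich in genes, had 1.16. HOXA made up 0.0725% of the span of chromosome 7 and held 2.12% of its 945 peaks. HOXD made up 0.0420% of chromosome 2 and held 0.676% of its peaks. HOXC held 1.32% of the peaks of chromosome 12 in 0.0913% of its span, and HOXB 0.849% of those of chromosome 17 in 0.252%. Numbers of chromosome copies in DAOY were not measured here, and their part in these densities was not tested.

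Few stretches of the autosomes held as many peaks. The 22 autosomes were divided into stretches as long as each cluster, and the peaks in each were counted by midpoint. Most stretches held no peak, from 59% of those as long as HOXB to 72.5% of those as long as HOXD. The shares below are of all stretches, with the empty ones included. None of 24172 stretches as long as HOXA (0%) held 20 peaks or more, and the fullest had 19. For HOXC, 0.193% of 22782 stretches had 10 or more, and for HOXD 0.528% of 27253 had 7 or more. For HOXB, 1.72% of 13621 stretches had 8 or more. With close peaks joined the shares were 0.609% for HOXB and 0.660% for HOXD, so the order of these 2 turned, and on chromosome 17 alone 7.58% of stretches matched HOXB. Fixed stretches can cut a dense place in pieces, so windows of the same length were also started at each autosomal peak. Outside HOXA, 2 of 14259 such windows held 20 peaks or more, with at most 21. By this count, which begins at a peak by construction, HOXB was matched by 13.4% of windows, HOXD by 6.60% and HOXC by 2.58%.

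The stretches next to the clusters differed from side to side. The 100 kb next to a cluster, on the 8 sides, held 6 peaks in all, or 0.750 per 100 kb, above the 0.493 of the whole list, and 4 of the 8 sides held none. HOXB had no peak in the first 100 kb on either side. The nearest peaks to its own lay 365 kb below and 205 kb above. The nearest to HOXC lay 228 kb below and 106 kb above, and the nearest to HOXA 186 kb below and 34.8 kb above. HOXD was different at its HOXD13 end, where the next peak lay 13.1 kb away and 3 peaks stood within 100 kb. In the gene table the protein-coding gene next to HOXD13 on that side is EVX2, another homeobox gene. At the HOXD1 end of HOXD the next peak was 80.4 kb away. The median gap between neighbouring peaks on autosomes was 49.1 kb, and gaps of 365 kb or more made up 11.9% of them, so such distances are not rare.

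**Figure D2:**
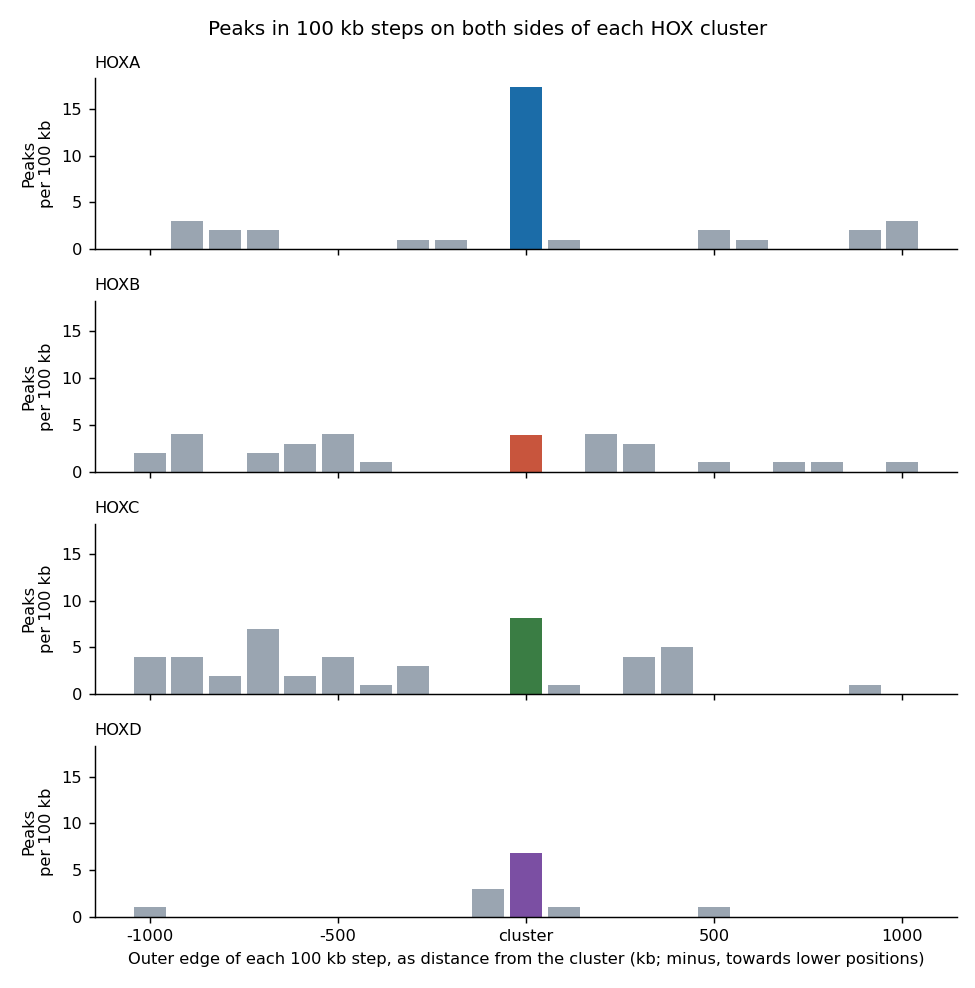
Peaks per 100 kb inside each HOX cluster (coloured bar at the centre) and in steps of 100 kb on both sides (grey bars, peaks counted by midpoint; minus marks lower positions). The central bar of HOXA reaches 17.4 with at most 3 peaks in any step beside it, whereas steps beside HOXC reach 7 and the bar of HOXB, 3.92, is matched by steps with 4 peaks.

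Beside HOXA the fullest steps of 100 kb held 3 peaks, far fewer than the cluster. Beside HOXC the fullest step, between 600 and 700 kb below the cluster, held 7 peaks, close to the 8.20 per 100 kb inside it. Of the 80 steps around the 4 clusters, 42 were empty. The strongest peak in the flanks was below HOXC, at chr12:53845781-53846999, and its score of 3100 shared rank 4 of the list. On the upper side of HOXC, chr12:54718823-54719457 scored 1803. The strongest peaks beside the other clusters were chr7:26241127-26242218 (333) below and chr7:27779708-27780697 (530) above HOXA, chr17:45608780-45609239 (532) below and chr17:47438865-47439515 (291) above HOXB, and chr2:176045432-176046489 (827) below and chr2:177134026-177134606 (325) above HOXD. On every side except the lower side of HOXA, the strongest flanking peak scored more than the strongest peak inside the cluster.

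Scores inside the clusters differed from cluster to cluster. The 45 peaks had a median score of 87.5 (95% interval from ranks 72.5 to 126.6), the 89 peaks in the flanks 122 (83.5 to 159), and the whole list 109. The intervals overlap, and the order rests on HOXB: without it and its flanks the median was 123 in the other clusters and 116 beside them. Above the median of the list stood 19 of the 45 (42.2%), against 49.9% of all peaks. Scores of 200 or more were reached by 8 of the 45, against 28.4% of all peaks. All 8 belonged to HOXA (5) and HOXC (3). The median was 126 in HOXA, 89.5 in HOXC, 76.1 in HOXB and 60.7 in HOXD. The chromosomes themselves varied less, with medians of 117 on chromosome 7, 113 on chromosome 12, 109 on chromosome 17 and 106 on chromosome 2. Peaks of 1 library are not replicates, so these medians are compared without a test.

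**Figure D3:**
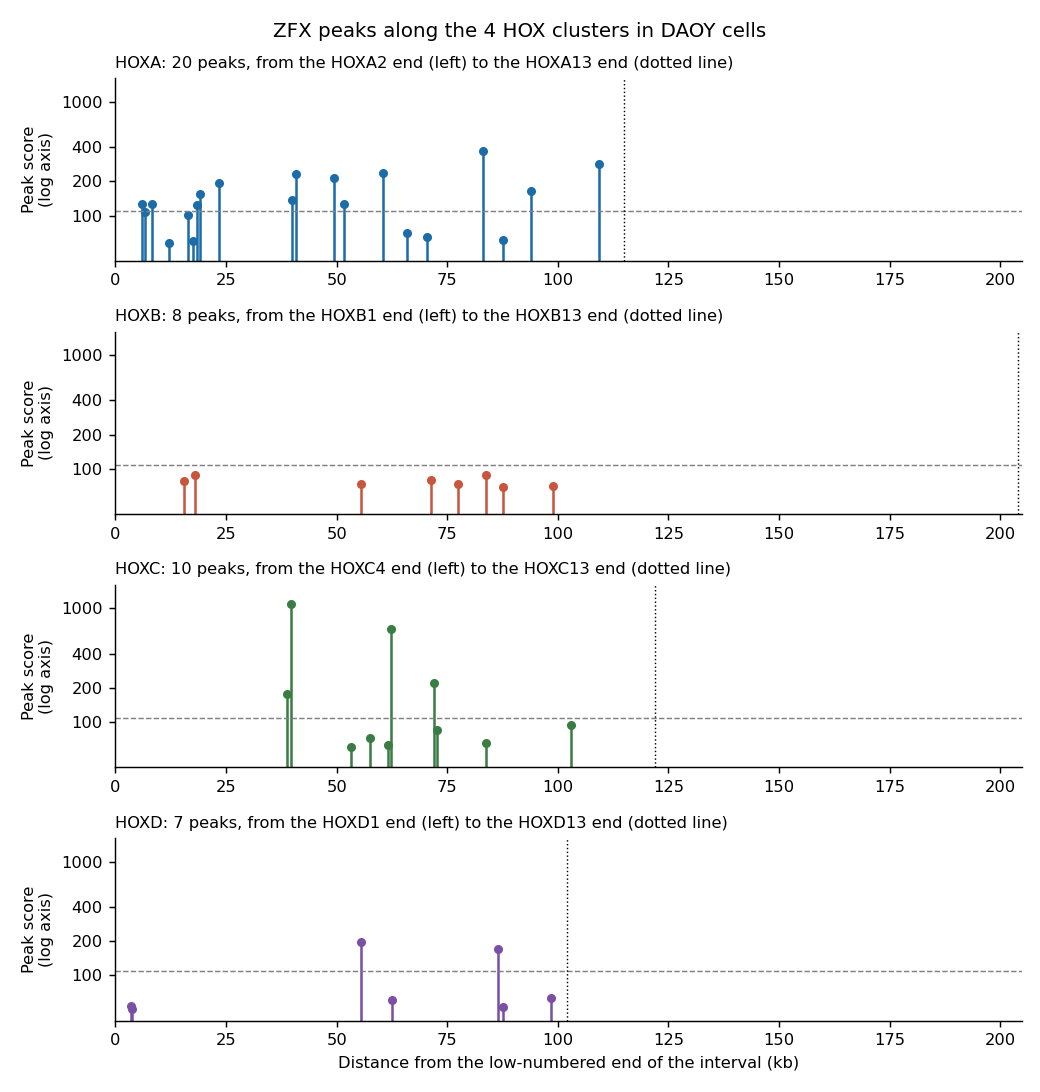
Score (log axis) of each of the 45 peaks against its distance in kb from the low-numbered end of its cluster, 1 panel per cluster. The dashed line marks the median of the whole list, 109, and the dotted line the high-numbered end. All 8 HOXB peaks stay under the dashed line, and no peak lies in the first 25% of HOXC or the last 50% of HOXB.

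HOXA held peaks along most of its length. Its peaks spanned 104 kb of 115 kb, the longest peak-free stretch was 15.8 kb, and 12.6% of the interval lay under peaks, against 0.575% of its flanks. The 9 peaks in the 25% nearest the HOXA2 end had a median score of 123, and the other 11 peaks were spread as 4, 4 and 3 over the rest. Near the HOXA2 end a first run of 3 peaks covered 2866 bp with gaps of 42 and 721 bp. It held chr7:27135742-27136362 with a score of 126, chr7:27136405-27137102 with 107 and chr7:27137824-27138607 with 126. A weaker peak of 57.9 followed at chr7:27141735-27142337. A second run, the largest in any HOX cluster, put 4 peaks in 3324 bp. These were chr7:27146127-27146744 (101), chr7:27147447-27147820 (59.3), chr7:27148159-27148629 (123) and chr7:27148778-27149450 (154). Alone beyond this run stood chr7:27152938-27153683, the strongest of the 9 at 191, and after it came the longest peak-free stretch.

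In the middle of HOXA strong and wide peaks stood beside weak and narrow ones. A pair lay at chr7:27169446-27170479 (136) and chr7:27170535-27171122 (231), only 55 bp apart. Next came chr7:27178983-27179695 with 215 and chr7:27181209-27181980 with 127. The widest peak of all 4 clusters, 1447 bp, lay at chr7:27189760-27191206, about midway along the interval, and scored 235. After it stood weak peaks at chr7:27195589-27195986 (70.7) and chr7:27200245-27200595 (64.6). Both of these weak peaks thus followed the widest one.

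Towards the HOXA13 end the strongest HOXA peaks appeared. The highest score, 368, belonged to chr7:27212483-27213577, which ranked 1941 in the list. Between it and the end lay chr7:27217292-27217733 with 61.4 and chr7:27223462-27224376 with 164. The last peak, chr7:27238713-27239818, scored 284 and stood 109 kb from the HOXA2 end of the interval. The next peak, outside, scored only 50.5, and in the gene table the next protein-coding gene on that side beyond the cluster is EVX1.

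In HOXB the peaks were few, weak and all in the lower part. All 8 scored between 68.9 and 87.5, under the median of the list, and covered 1.48% of the interval, against 0.646% of its flanks. None had a neighbour within 1 kb. From the HOXB1 end the first were chr17:46619329-46619618 (78.4) and chr17:46621584-46622177 (87.5), the latter the strongest and widest of HOXB at 594 bp. HOXB1 itself acts in the hindbrain. A gap of 37.2 kb followed. The other 6 peaks lay between 55.6 and 98.8 kb from that end. They were chr17:46659417-46659790 (72.9), chr17:46675168-46675496 (79.4), chr17:46681153-46681564 (73.8), chr17:46687523-46687853 (87.4), chr17:46691485-46691878 (68.9) and chr17:46702654-46702941 (70.4). Their scores stayed within a narrow band, unlike those of HOXA.

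From chr17:46702942 to the HOXB13 end, 105 kb, no peak was listed. HOXB13, known for its role in the prostate, stands apart from HOXB9 and the rest of HOXB, with PRAC1 and PRAC2 between them in the gene table. Because the interval includes this stretch, the density of HOXB depends on where its edge is placed. Scores of the 27 flanking peaks were higher, with a median of 146, and 15 of them stood above the median of the list.

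HOXC carried the strongest HOX peaks among weak ones. Its 10 peaks covered 4.61% of the interval, against 1.04% of its flanks, and 6 of them lay in pairs within 1 kb. The strongest, chr12:54411740-54412780, scored 1089 over 1041 bp and ranked 261 in the list, above 98.2% of all peaks. Its partner, chr12:54412861-54413564, lay 80 bp away and scored 178. Second came chr12:54389242-54390161 with 658, rank 709, whose partner 11 bp away, chr12:54390173-54390468, scored 62.5. In the third pair chr12:54379566-54380357 scored 223 and chr12:54378939-54379522 scored 84.6. Each pair thus set a strong peak beside a much weaker one.

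The single peaks of HOXC were all under 100. They were chr12:54398719-54398997 (60.1) and chr12:54394206-54394558 (72.5) between the stronger pairs, and chr12:54368184-54368498 (65.4) and chr12:54348907-54349245 (94.4) towards HOXC13. HOXC13, a gene of hair and nail growth, closes the cluster at this end. The 25% nearest to HOXC4 held no peak, and the longest peak-free stretch inside the interval, 38.4 kb, ran to that end. From the first peak to the last, HOXC peaks spanned 64.7 kb of 122 kb.

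HOXD had few and mostly weak peaks at both ends and in the middle. Its 7 peaks covered 2.54% of the interval, against 0.171% of its flanks. At the HOXD13 end stood chr2:176958416-176958763 with a score of 63.8. A pair 840 bp apart followed, chr2:176969180-176969429 with 52.7 and chr2:176970270-176970950 with 172. Further in were chr2:176994420-176994717 with 60.7 and chr2:177001209-177001671 with 197, the strongest of HOXD. These 2 peaks above the median of the list lay 86.4 and 55.6 kb from the HOXD1 end.

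A stretch of 51.4 kb without a peak then separated the middle of HOXD from the HOXD1 end. There chr2:177053093-177053354 (50.8) and chr2:177053375-177053664 (54.2) stood 20 bp apart. The first of them ranked 14134 of 14471, close to the lowest score listed, 50. Weak peaks such as these would be lost under a slightly higher score limit.

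Along their length the clusters had no common pattern. Counted from the low-numbered to the high-numbered end in 4 segments of 25% of the interval, the 45 peaks were spread as 13, 14, 11 and 7. These segments follow length and not single genes, so the same segment need not hold the same paralogues in different clusters. HOXA alone gave 9 of the 13, and HOXB gave 6 of the 14. The segment without peaks was the first in HOXC, the second in HOXD and the last 2 in HOXB, and HOXA had none. The high-numbered ends of the intervals did not match in score either. The last 25% of HOXA reached 284, that of HOXD 172 and that of HOXC 94.4, and HOXB had no peak there.

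Peaks in the clusters were close together but not more than nearby. A neighbour within 1 kb was found for 19 of the 45 (42.2%), against 32.1% of all peaks and 44.9% of the 89 flanking peaks. By cluster this was 9 of 20 in HOXA, 6 of 10 in HOXC, 4 of 7 in HOXD and 0 of 8 in HOXB. Joining such peaks left 34 regions, with 14 in HOXA, 8 in HOXB, 7 in HOXC and 5 in HOXD. HOXA stayed densest at 12.2 regions per 100 kb, and HOXB, at 3.92, came nearer to HOXC with 5.74 and HOXD with 4.90.

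HOXA peaks were also wide for their scores. The median width was 686 bp in HOXA, 469 bp in HOXC, 353 bp in HOXB and 298 bp in HOXD, against 481 bp in the whole list. Because wider peaks score higher, widths were compared within bands of score, under 100, 100 to 200, 200 to 400 and 400 or more. Of the 20 HOXA peaks, 17 were wider than the median of the whole list in their band, against 50.0% of all peaks. This held for 5 of 5 under 100, for 9 of 10 between 100 and 200 and for 3 of 5 between 200 and 400. In HOXB it was 4 of 8, in HOXC 5 of 10 and in HOXD 2 of 7. On chromosome 7 as a whole 65.2% of peaks were wide for their band, against 48.9% on chromosome 17, 53.6% on chromosome 12 and 43.6% on chromosome 2. Chromosome 7 thus had the highest share of the 4 chromosomes, and its part in the width of HOXA peaks was not tested.

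**Figure D4:**
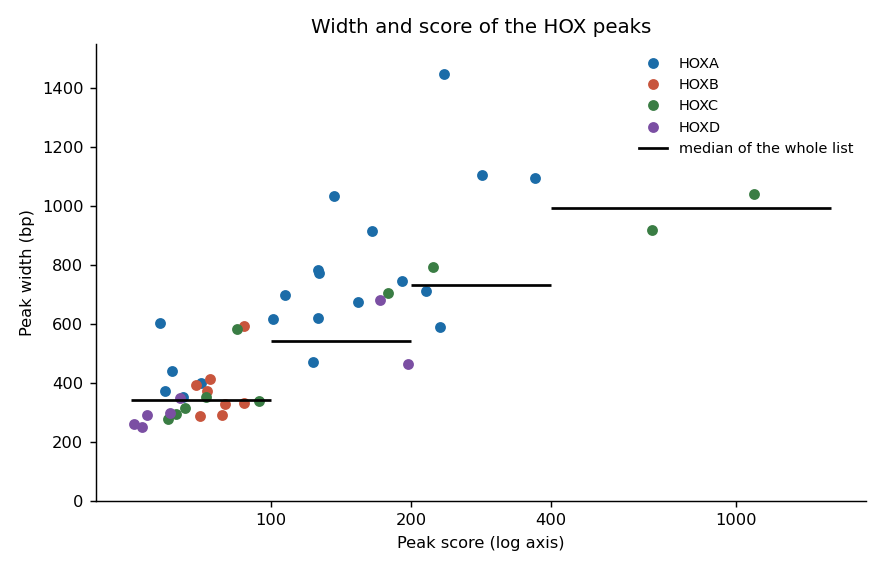
Width in bp against score (log axis) of the 45 HOX peaks, coloured by cluster, with black lines at the median width of the whole list in 4 bands of score. Most HOXA points, 17 of 20, lie above the line of their band, and the widest reaches 1447 bp.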

How the data were processed

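ZFX ChIP-seq peaks of DAOY cells came from 1 library; the input was not analysed here. The labelled antibody gave the groups. Bowtie2 2.0.0 and hg19 are named, with no role, in the submitters' processing notes, and peak names in the deposited list carry the name MACS; no source used here gives the caller's version, threshold or control, or the read depth. The deposited list has no header, and its score, made by the authors, has no stated unit. Starts were read as counted from 0 and are printed counted from 1.

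The HOX intervals, gene list and comparisons were chosen with earlier results of these data known. Named genes are the listed HOX genes and protein-coding genes next to or within a cluster. Every HOX peak and the strongest flanking peak on each side are printed. Flanks were 1 Mb on each side, and joined peaks lay at most 1 kb apart. Stretches of equal length ran from the outermost peak of each autosome. Counts have exact 95% Poisson intervals, and median scores binomial rank intervals. Ratios of densities and the share of windows with AGGCCT have exact binomial ones. Windows started at each peak, 100 kb steps, width bands, score limits and CpG counts were added after the data were seen. Peaks per gene were planned and not run, since gene positions on hg19 were not used here. Counting, joining and coverage were tested on simulated data. The tools were scipy 1.17.1, pandas 2.3.3 and numpy 2.4.6 in Python 3.11.15, with matplotlib 3.10.9 for plots.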

Additional observations from a re-analysis of the deposited data

How the results depend on the processing

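Of 76 alternatives for 19 results, 59 kept the value. Peak counts and covered ratios were held to within 1.5 times of the value. Density ratios, median scores and shares were held to their 95% intervals. Among peaks above the median score, HOXA held 13, HOXC 4, HOXD 2 and HOXB 0. The ratios of HOXB to its flanks in peaks per 100 kb and in covered share then became 0 and 0, and the covered ratio of HOXD became 9.49. Stretches with as many such peaks were 100% for HOXB, by construction, 5.35% for HOXD and 0.898% for HOXC. After joining they were 0.609% for HOXB and 0.660% for HOXD. On the same chromosome they were 7.58% for HOXB, 0.252% for HOXD and 0% for HOXC. Shortening the interval by 10 kb on each side left 4 peaks in HOXD, which cuts off its end peaks. With flanks of 500 kb the covered ratio of HOXA was 44.7. The density ratios of HOXA and HOXD, 19.3 and 22.9, ranged from 17.4 to 34.8 and from 13.1 to 19.6 in 4 alternatives, within their intervals. The median score of the clusters ranged from 73.8 to 123 with 1 cluster left out. The causes of the other changes were not tested. No paired analysis was possible because 1 library has peaks. Moving the stretches by 0.5 of their length changed no value beyond its interval and was chosen after seeing the data. Without the read depth, the number of weak sites missed in these clusters is unknown.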
